A study of Myzus persicae with 16 samples.

Results

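The transcripts described here are 150 probe names of the green peach aphid, Myzus persicae, whose mean response to the alarm pheromone pointed in opposite directions in aphids with different rearing histories. The members were chosen by measured values: a name entered when its mean log2 ratio after exposure was above 0 in one rearing and below 0 in the other, with both sizes at least 0.3, and the 150 names with the largest smaller size were kept. They are 150 of 7223 names whose probes were well above background in both channels of the 8 arrays used for the choice, and of 10489 names on the array. In all, 428 names had opposite signs of that size, so 278 stayed outside. The last name inside had log2 values of 0.45 and -0.62, and the first outside -0.78 and 0.45.

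Aphids under attack release (E)-beta-farnesene, abbreviated EBF, from their cornicles as an alarm pheromone. Nearby aphids that perceive it typically stop feeding and walk away or drop from the plant. Habituation is the waning of such a response when the signal persists, and plants that emit EBF all the time are a way to produce it.

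All aphids belonged to the red tobacco adapted strain, and each RNA came from a pool of 50 whole aphids. They had lived for 6 months or longer on Arabidopsis thaliana, either the wild type Col-0 or 35S:EBFS plants, in which a constitutive viral promoter drives an EBF synthase throughout the plant. The day was 16 h light and 8 h dark. Pools then received 1 µg EBF in hexane, or hexane alone, for 30 min. The 4 conditions are therefore Col-0 reared with and without EBF, and 35S:EBFS reared with and without EBF. The labels call the Col-0 reared aphids not habituated. How many plant lines carried 35S:EBFS is not given in the sources used here. In pooled whole animals, fewer cells of a type and less RNA per cell cannot be told apart.

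RNA was labelled with Alexa Fluor 555 or 647 and hybridised on 16 arrays of 2 colours, in a loop of 4 array groups with 4 arrays each. The Col-0 response arrays set exposed over unexposed Col-0 reared aphids, and the 35S:EBFS response arrays set exposed over unexposed 35S:EBFS reared aphids. These 8 arrays chose the members. The exposed-aphid arrays set Col-0 over 35S:EBFS rearing after EBF, and the unexposed-aphid arrays set 35S:EBFS over Col-0 rearing after hexane alone. In each group the dyes were exchanged on 2 of the 4 arrays. The direction of each ratio follows the dyes in the labels. For the exposed-aphid arrays it opposes the sign of the authors' deposited table, whose column correlated at -0.9999 with the mean of these arrays and is named for the same order of conditions. For the unexposed-aphid arrays the deposited column correlated at -0.9998 but is named for the reverse order, so it has the direction of the labels. Both response columns also have that direction. Which direction is right for the exposed-aphid arrays was not settled, so every sign that rests on them holds only with the direction of the labels. Values with these arrays turned are given beside the counts of members. The Col-0 response and exposed-aphid arrays lay on slide 1, the other 2 groups on slide 2, so slide and array group cannot be told apart. Of 14628 probes, 67.2% to 77.6% exceeded background clearly in both channels on slide 1, and 76.5% to 85.8% on slide 2. Saturated probes numbered 439 to 618 per array on slide 2 and 0 on slide 1. Per the file headers a channel saturated at an intensity of 65511 on slide 2 and at 778387 to 778651 on slide 1, so the slides were read over different ranges. The labels do not say which arrays share an RNA extract, so the p-values below reflect variation among arrays that may be partly technical, and the number of arrays limits the precision.

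The probe names are contigs or other sequence identifiers. None of the 10489 names matched the RefSeq gene table of this species, so no member has a gene name, a function or a sequence here, and tissue markers could not be checked. The identity of a member is its contig number alone.

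The members fell into classes of unequal size. Of the 150, 98 were higher after EBF in Col-0 reared aphids and lower after EBF in 35S:EBFS reared aphids, with median log2 values of 0.89 and -0.63. The other 52 were lower in Col-0 reared and higher in 35S:EBFS reared aphids, with medians of -0.79 and 0.51. Values ran from -3.22 to 3.0 on the Col-0 response arrays and from -1.51 to 0.99 on the 35S:EBFS response arrays. These values chose the members and are given as a description, with no test.

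**Figure D1:**
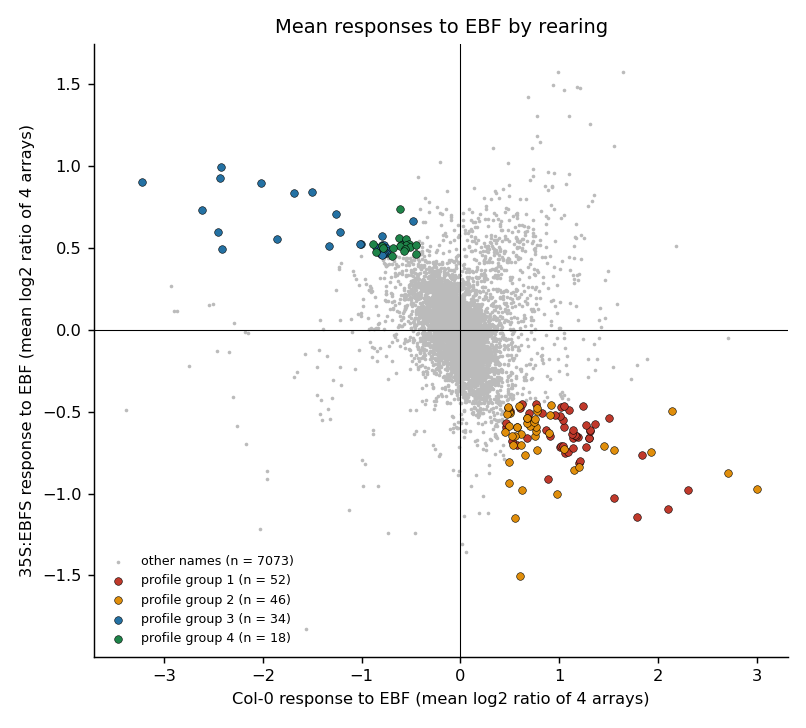
Mean log2 ratio of exposed over unexposed aphids in Col-0 reared (x axis, 4 arrays) and 35S:EBFS reared aphids (y axis, 4 arrays), 1 point per name; members are coloured by profile group and other names are grey. The 98 members of one class lie at lower right and the 52 of the other at upper left, both placed there by the choice.

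Each mean rests on 4 arrays, and for most members the arrays did not all run the same way. The 4 Col-0 response arrays shared a sign for 51 of 150 members (21.2% of all 7223 names), and the 4 35S:EBFS response arrays for 59 (28.7% of all names). All 4 arrays of one response above 0 and all 4 of the other below 0 was seen for 24 members, 9 of the first class and 15 of the second, beside 5.62% of all names. The arrays of the 2 responses did not overlap for 41 members, beside 12.8% of all names. Nothing is read from these shares, since the same arrays made the choice. The median SD over 4 arrays was 1.1 among members and 0.29 over all names for the Col-0 response, and 0.60 against 0.21 for the 35S:EBFS response.

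The members varied as much on the arrays that had no part in the choice. There the median SD over 4 arrays was 1.06 on the exposed-aphid arrays, beside 0.40 over all names, and 0.84 on the unexposed-aphid arrays, beside 0.26. Probes of a name were compared on their mean responses over the choosing arrays, which made the choice, and not on their spread. Of the 150 members 59 carried 2 probes, both probes had the same signs in all 59 and both met the criterion in 58. The median of the larger difference between the 2 probes was 0.05 log2. The other 91 members had 1 probe.

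When the members were ordered by their profile over all 16 arrays (average linkage on 1 minus Pearson's r), 4 profile groups were formed after the values were seen. They are a description and carry no test. Groups 1 and 2 hold the 98 members that were higher after EBF in Col-0 reared aphids, and groups 3 and 4 hold the 52 that were lower.

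**Figure D2:**
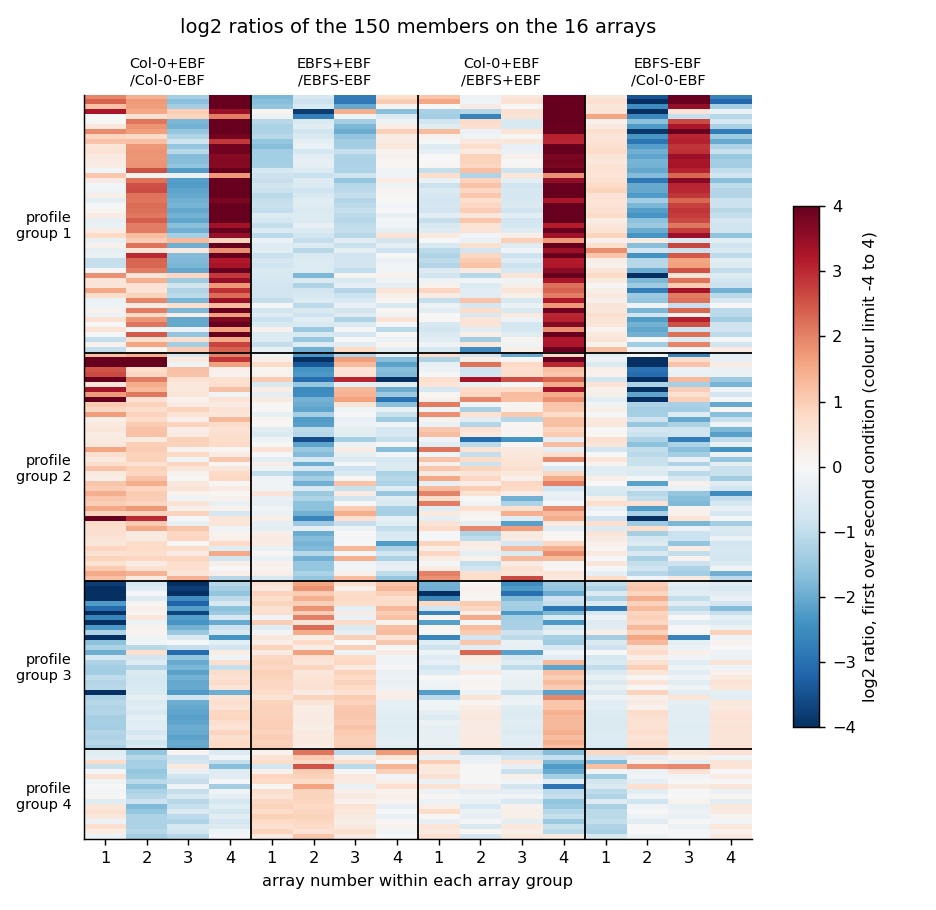
log2 ratios of the 150 members (rows, ordered by profile group) on the 16 arrays (columns, numbered 1 to 4 within each array group); red is higher and blue lower in the first condition named above the columns, with colours limited at -4 and 4. Array 4 of Col-0+EBF/Col-0-EBF and array 4 of Col-0+EBF/EBFS+EBF are dark red in group 1, and array 2 of EBFS+EBF/EBFS-EBF is blue in group 2.

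Profile group 1 held 52 members with a median Col-0 response of 1.05 and a median 35S:EBFS response of -0.63. On the Col-0 response arrays 1 to 4 the group medians were 0.20, 1.78, -1.63 and 3.76, so arrays 2 and 4 were high and array 3 was on the opposite side of 0. On the 35S:EBFS response arrays they were -0.81, -0.59, -0.96 and -0.02. On the exposed-aphid arrays they were -0.49, 0.45, -0.27 and 3.80, again with array 4 far above the others. The unexposed-aphid arrays gave 0.54, -1.95, 2.65 and -0.98, which spans 0 widely.

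Within group 1 the arrays followed the dye of the first condition. With the first condition in Alexa Fluor 647 the ratio was higher than with Alexa Fluor 555 in 52 of 52 members on the Col-0 response arrays, 51 on the exposed-aphid arrays, 41 on the 35S:EBFS response arrays and 50 on the unexposed-aphid arrays. Over all names the corresponding shares were 50.4%, 42.3%, 44.7% and 47.2%. Over all 150 members they were 69.3%, 72%, 41.3% and 62.7%. All of these arrays helped to form the profile groups. The counts by dye in group 1 and in the other groups are therefore partly fixed. The dye term is the difference between orientations divided by 2. Its median was 1.70 on the Col-0 response arrays of group 1, beside a median size of 0.13 over all names. A dye effect of equal size on every array cancels in a mean of 2 arrays per orientation. Here the 2 arrays of an orientation differed from each other, and dye orientation and array number cannot be told apart for a single array. The part of dye in the mean responses of the members of group 1 was not tested.

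Without array 4 of the Col-0 response, 12 of the 52 members of group 1 still met the criterion, and the group's median Col-0 response was 0.14. The group was bright, at the 94.5th percentile of signal on slide 1, and 38 of its 52 members had a saturated spot on slide 2.

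Profile group 2 held 46 members with a median Col-0 response of 0.68 and a median 35S:EBFS response of -0.63. The Col-0 response arrays gave medians of 0.94, 0.92, 0.48 and 0.39, all above 0, and 31 of the 46 members were on one side of 0 on all 4 arrays. The 35S:EBFS response arrays gave -0.04, -1.75, 0.00 and -0.95, so 2 of the 4 carried the negative mean. Both were arrays with exposed aphids in Alexa Fluor 647, and their mean was lower than that of the other 2 in 46 of 46 members. Without array 2 of that group, 22 of the 46 members met the criterion and the median 35S:EBFS response was -0.27. The exposed-aphid arrays gave 0.33, 0.20, 0.39 and 1.06, and the unexposed-aphid arrays 0.10, -1.14, -0.82 and -0.70. On the unexposed-aphid arrays all 46 members had a mean below 0, with a median of -0.67. Levels were thus lower in 35S:EBFS reared than in Col-0 reared aphids given hexane alone. These arrays helped to form the group, so that count is partly fixed. On array 1 of them 26 of the 46 were above 0. All 4 shared a sign for 10 members, beside 17.9% of all names. The group was dimmer than the median name, at the 39.6th percentile on slide 1, and 4 members had a saturated spot.

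Profile group 3 held 34 members with a median Col-0 response of -0.81 and a median 35S:EBFS response of 0.52. The Col-0 response arrays gave -1.35, -0.49, -2.06 and 0.07, and the 35S:EBFS response arrays 0.86, 0.55, 0.80 and -0.01. Array 4 was near 0 in both. The exposed-aphid arrays gave -0.38, 0.32, -0.54 and -0.22, and the unexposed-aphid arrays -0.57, 0.72, -0.42 and 0.09. The ratio was higher with the first condition in Alexa Fluor 647 in 34 of 34 members on the Col-0 response arrays. It was higher in 33 on the exposed-aphid arrays and in 12 on the 35S:EBFS response arrays, and lower in 33 of 34 on the unexposed-aphid arrays. Group 3 members were the brightest of the 4 groups, at the 96.5th percentile on slide 1 and the 97.9th on slide 2. A saturated spot on slide 2 was seen in 25 of the 34.

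Profile group 4 held 18 members with a median Col-0 response of -0.61 and a median 35S:EBFS response of 0.51. The Col-0 response arrays gave -0.02, -1.30, -0.81 and -0.50, and the 35S:EBFS response arrays 0.72, 0.89, 0.32 and 0.14, all above 0. The exposed-aphid arrays gave 0.37, -0.25, -0.12 and -1.25, and the unexposed-aphid arrays -1.01, -0.13, -0.03 and 0.25. With the first condition in Alexa Fluor 647 the ratio was higher in 1 of 18 members on the Col-0 response arrays and in 0 on the exposed-aphid arrays. On the 35S:EBFS response arrays it was higher in 9, and on the unexposed-aphid arrays in 4. These members were dim, at the 30.0th percentile on slide 1, and 2 had a saturated spot.

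**Figure D3:**
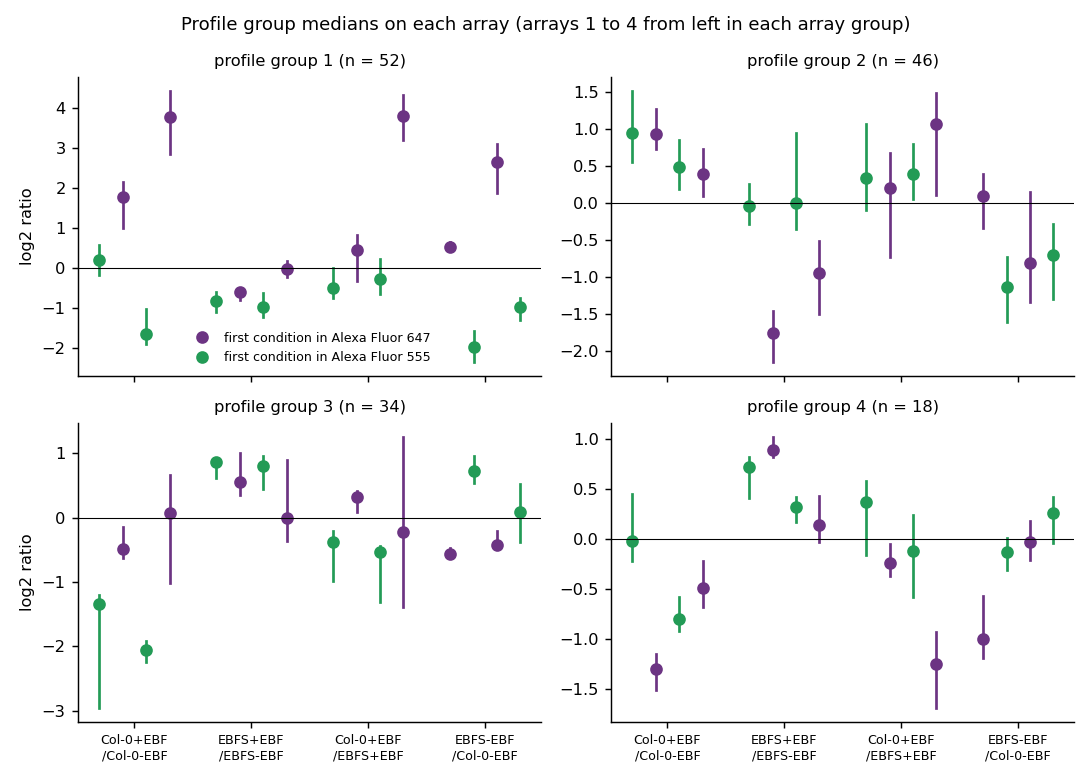
Median log2 ratio of each profile group on each array (points) with the interquartile range over members (bars), by array group on the x axis, arrays 1 to 4 from left; purple marks arrays with the first condition in Alexa Fluor 647 and green those with it in Alexa Fluor 555. In group 1 every purple median lies above every green median within each array group, and in group 2 the 2 purple medians of EBFS+EBF/EBFS-EBF, -1.75 and -0.95, lie below the green ones. The y axes differ between panels.

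Many members had nearly the same profile. Their most similar other name had a median Pearson's r of 0.988 over the 16 arrays, beside 0.941 over all names, and 45.3% of members had a name at r of at least 0.99, beside 4.44% of all names. These profiles share the same arrays and dyes, and members that share sequence cannot be recognised without the probe sequences. Linking members at r of at least 0.99 gave 17 linked sets with 66 members in all. The largest linked set had 20 members, all in group 1 and all with a saturated spot on slide 2. The second had 12 members, all in group 3, and 10 of them were identifiers other than contigs. Its Col-0 responses lay between -0.81 and -0.74 and its 35S:EBFS responses between 0.46 and 0.52, so 12 names gave nearly one measurement.

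Other identifiers were frequent among the members as a whole. They made up 24 of 150 members (16.0%) and 138 of 7223 names (1.91%). By group they were 6 of 52, 1 of 46, 15 of 34 and 2 of 18. Among the 150 names with the largest responses of the same sign in both rearings, 1 was not a contig.

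Saturated spots were frequent among the members. A saturated spot on slide 2 was found in 69 of 150 members (46.0%), beside 462 of 7223 names (6.40%), 28 of the 278 opposite names outside the members, and 7 of the 150 same-sign names. On the 35S:EBFS response arrays both channels of one array were saturated for 29 members, and for none of the 150 on all 4. A saturated channel gives only a lower limit of its signal. A ratio with 1 saturated channel is thus bounded on one side, and a ratio of 2 saturated channels is bounded on neither. Without saturated spots 108 members could still be assessed, and 106 of these met the criterion. The 69 members with a saturated spot had a median Col-0 response size of 1.05 and a median SD over the 4 Col-0 response arrays of 2.22. The 81 without one had 0.67 and 0.70. Those Col-0 response arrays themselves had 0 saturated spots. The arrays of both responses did not overlap in 9 of the 69 and in 32 of the 81, beside 12.8% of all names. These arrays made the choice, so nothing is read from these counts.

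Among the 98 members higher after EBF in Col-0 reared aphids, the smaller size was largest for contig1393. Its Col-0 response arrays read 1.96, 1.45, -1.40 and 5.13 (mean 1.79 ± 2.68, SD, n = 4), and its 35S:EBFS response arrays -1.84, -0.67, -2.77 and 0.71 (mean -1.14 ± 1.51, SD, n = 4). The arrays of the 2 responses overlapped, and each response had 1 array on the other side of 0. Second came contig4636, with 2.36, 1.71, -1.68 and 6.02 on the Col-0 response arrays (mean 2.10 ± 3.15, SD, n = 4) and -1.71, -0.85, -2.83 and 1.02 on the 35S:EBFS response arrays (mean -1.09 ± 1.63, SD, n = 4). The high and low arrays were those of contig1393, and the correlation of both profiles over 16 arrays was 0.998. Both had a saturated spot on all 4 unexposed-aphid arrays and on 0 of the 35S:EBFS response arrays.

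Among the 52 members lower after EBF in Col-0 reared aphids, contig3082 had the largest smaller size. It read -3.77, -0.71, -4.06 and -1.15 on the Col-0 response arrays (mean -2.42 ± 1.74, SD, n = 4) and 0.61, 1.57, 0.65 and 1.14 on the 35S:EBFS response arrays (mean 0.99 ± 0.45, SD, n = 4). All 8 arrays kept to their side of 0, so the responses did not overlap. Next was contig2337, with -4.13, -0.49, -3.77 and -1.33 (mean -2.43 ± 1.79, SD, n = 4) against 0.38, 1.81, 0.19 and 1.34 (mean 0.93 ± 0.77, SD, n = 4). Its responses did not overlap either, and its profile correlated with that of contig3082 at 0.99. Both members had a saturated spot on 3 of the 4 35S:EBFS response arrays.

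**Figure D4:**
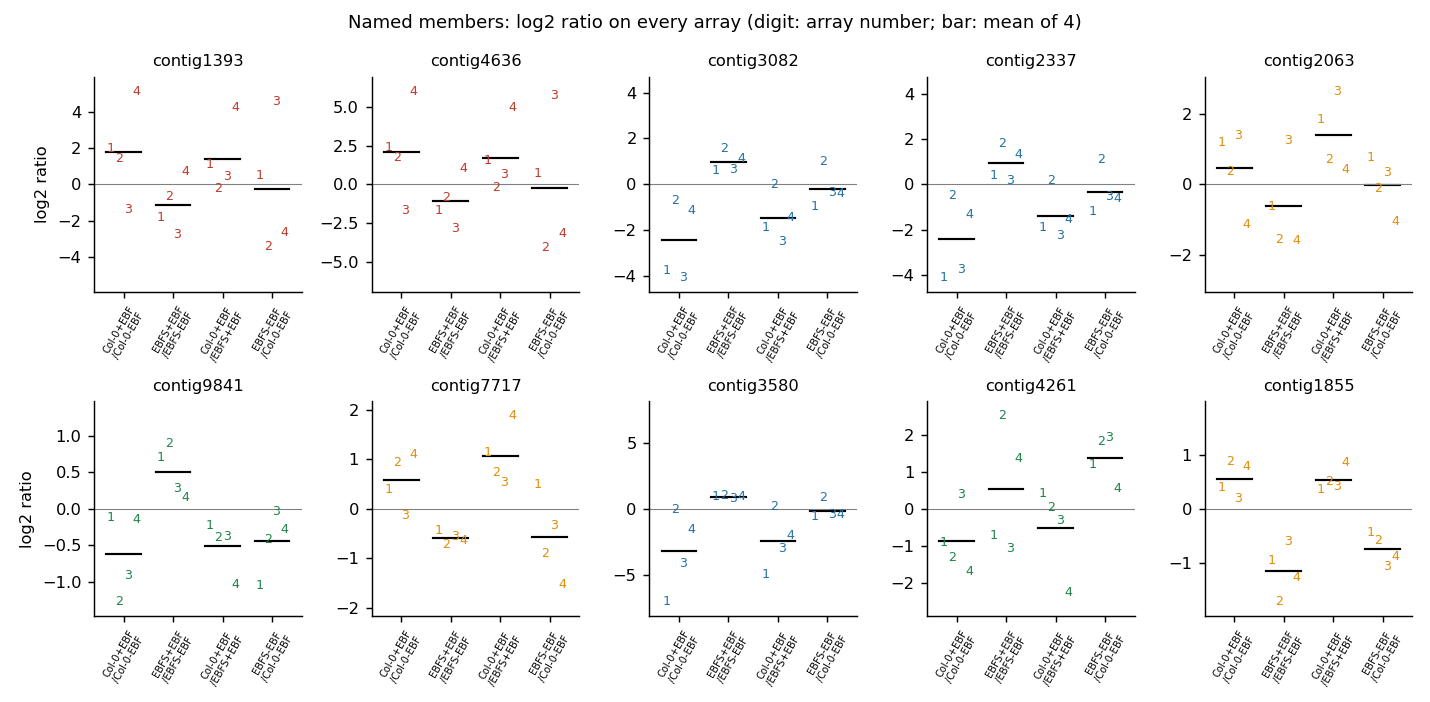
log2 ratios of the 10 named members on every array, by array group on the x axis; each digit is an array number, its colour the profile group, and each bar the mean of 4 arrays. For contig1393 and contig4636 array 4 of Col-0+EBF/Col-0-EBF lies at 5.13 and 6.02, while for contig3082 and contig2337 the arrays of the 2 responses lie on opposite sides of 0. The y axes differ between panels.

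The loop allows a test on arrays that had no part in the choice. The Col-0 response minus the 35S:EBFS response equals the sum of the exposed-aphid ratio, Col-0 over 35S:EBFS, and the unexposed-aphid ratio, 35S:EBFS over Col-0.

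No member's difference of responses passed the test on these 8 other arrays. With limma and an adjusted p threshold of 0.05 over 7223 names, 0 names were called (0% of all names), and at an unadjusted p under 0.05 there were 886 names (12.3%) and 16 members. The smallest adjusted p was 0.120 over all names and 0.188 among members. The sign on the other arrays was that of the choosing arrays for 97 of 150 members (64.7%), beside 62.2% of all names. With the exposed-aphid arrays turned it was 28 members (18.7%), beside 38.7% of all names. With the direction of the labels the share was 71.3% for the 150 same-sign names with the largest responses. For the 278 opposite names outside the members it was 68.7%. Turned values are not given for these sets, so the 18.7% of members cannot be set beside them. The share among members was thus close to that of all names in this direction with all 8 arrays, and below it with the exposed-aphid arrays turned. The closeness depended on single arrays. Without array 4 of the exposed-aphid group the shares were 66.0% of members and 51.0% of all names. Without array 2 of the unexposed-aphid group they were 73.3% and 62.7%, and without its array 3 they were 56.7% and 67.8%.

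With the direction of the labels the class medians lay on the side of their choosing arrays. The median difference on the other arrays was 0.45 over the 98 members of the first class, where 65 had the sign of the choosing arrays, and -0.38 over the 52 of the second, where 32 did. Turning the exposed-aphid arrays gave medians of -0.91 and -0.04, with the sign kept in 1 and 27 members. By profile group the sign was kept in 49 of 52, 16 of 46, 16 of 34 and 16 of 18 members, with medians of 0.85, -0.26, 0.12 and -0.50. These groups were formed on all 16 arrays, the 8 other arrays included, so their contrast is partly fixed by how they were made. After turning, the counts were 0, 1, 18 and 9, with medians of -0.84, -1.20, -0.08 and 0.01. Of the 69 members with a saturated spot 51 kept the sign (73.9%), and of the 81 without one 46 (56.8%). Turned, these counts were 18 and 10. With saturated spots left out 92 members could be assessed, 53 kept the sign (57.6%), and the median of the first class was -0.08. The part of saturation in these counts was not tested further. The 12 linked members of group 3 had differences between 0.11 and 0.31 on the other arrays, all opposite to their choosing arrays, and between -0.26 and -0.12 with the exposed-aphid arrays turned.

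**Figure D5:**
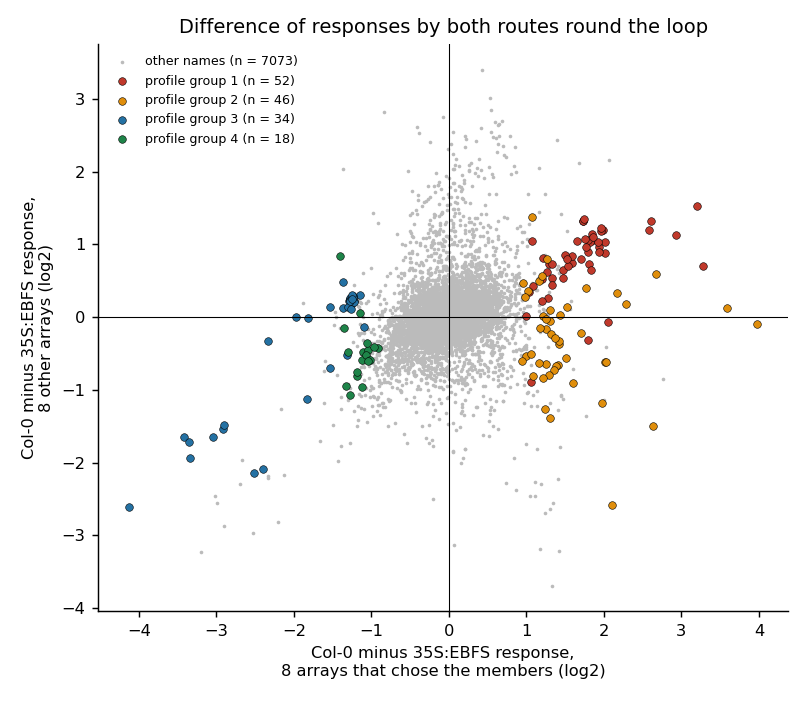
Difference of the Col-0 and 35S:EBFS responses (log2) on the 8 arrays that chose the members (x axis) and on the 8 other arrays (y axis), 1 point per name, with other names in grey. Red points of group 1 lie mostly above 0, with 49 of 52 keeping the sign, while orange points of group 2 lie on both sides, with 16 of 46 keeping it. The y axis uses the direction of the labels for the exposed-aphid arrays, and with them turned these counts are 0 and 1.

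The member with the smallest p for a positive difference was contig2063, also the last name inside. Its exposed-aphid arrays read 1.83, 0.71, 2.64 and 0.41 and its unexposed-aphid arrays 0.75, -0.12, 0.35 and -1.05. All exposed-aphid arrays were above 0 and the unexposed ones lay on both sides. The difference was 1.38 ± 0.59 (SE, 4 arrays in each group), with an adjusted p of 0.411 in limma. For a negative difference it was contig9841, with -0.22, -0.39, -0.38 and -1.04 on the exposed-aphid arrays and -1.05, -0.42, -0.04 and -0.28 on the unexposed-aphid arrays. All 8 were below 0, none was saturated, and the difference was -0.96 ± 0.26 (SE, 4 arrays in each group), with an adjusted p of 0.188 in limma. With the exposed-aphid arrays turned the differences were -1.41 for contig2063 and 0.06 for contig9841. Its choosing arrays, at -0.12, -1.28, -0.92 and -0.15 for the Col-0 response and 0.71, 0.90, 0.28 and 0.15 for the 35S:EBFS response, also did not overlap.

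The 2 members of each class with the largest smaller sizes had wide errors. The difference on the other arrays was 1.12 ± 1.41 for contig1393 and 1.52 ± 1.72 for contig4636 (SE), with limma adjusted p of 0.872 and 0.847. Both were saturated on all 4 unexposed-aphid arrays, so these differences rest in part on saturated spots, and they have no value without them. The former is 2.93 and the latter 3.20 on the choosing arrays. For contig3082 it was -1.64 ± 0.63 and for contig2337 -1.71 ± 0.68 (SE), with limma adjusted p of 0.349 and 0.374. Without array 3 of the unexposed-aphid group contig1393 came to -0.12 and contig4636 to -0.04, so 1 array decided the direction of these. The difference of contig3082 stayed between -2.18 and -1.28 and that of contig2337 between -2.31 and -1.33 when any 1 of the 8 arrays was left out. All 4 of these members changed side with the exposed-aphid arrays turned, to -1.65, -1.94, 1.26 and 1.07 in the order given.

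The exposed-aphid arrays ask how Col-0 and 35S:EBFS reared aphids differed after EBF. Their median log2 ratio was 0.74 over the 98 members of the first class, 85 of which were above 0, and -0.15 over the 52 of the second, 35 of which were below 0. The median over all names was 0.02. With these arrays turned every sign reverses, so the medians become -0.74 and 0.15 and the 85 members lie below 0 and the 35 above. No name passed the test (0% of 7223, limma adjusted p under 0.05), while 26 members and 1070 names (14.8%) had an unadjusted p under 0.05. Without array 1 of this group 58 names passed, 1 of them a member. The Col-0 response and exposed-aphid arrays share a condition and a slide, and their same-numbered arrays also have the same dye order. Same-numbered arrays deviated together, with correlations across names of 0.33 to 0.68 in 4 of 4 pairs, beside -0.57 to 0.36 for different numbers. With the direction of the labels, other groups that share a condition did not follow the number in this way. Exposed-aphid with 35S:EBFS response arrays, which also have the same dye order by number, gave -0.50 to -0.13. Here the sign was turned for the place of the shared condition. Likewise, 35S:EBFS response with unexposed-aphid arrays gave -0.43 to 0.19, and Col-0 response with unexposed-aphid arrays -0.56 to 0.10. With the exposed-aphid arrays turned, the ranges of 0.33 to 0.68 and -0.50 to -0.13 both change sign. Same-numbered exposed-aphid arrays would then deviate together with the 35S:EBFS response arrays and not with the Col-0 response arrays. Whether same-numbered Col-0 response and exposed-aphid arrays used the same extract of exposed Col-0 reared aphids is not stated. If they did, the exposed-aphid arrays are not fully separate from the choice.

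The smallest adjusted p for a higher ratio belonged to contig7717, with 1.14, 0.72, 0.53 and 1.88 on the exposed-aphid arrays. All 4 were above 0, at 1.07 ± 0.26 (SE pooled over the 8 other arrays, n = 4), with an adjusted p of 0.148 in limma. Its 35S:EBFS response arrays were the least spread of the named members of its class, at -0.44, -0.71, -0.57 and -0.65. For a lower ratio it was contig3580, with -4.99, 0.15, -3.03 and -1.99 and an estimate of -2.47 ± 0.66 (pooled SE, n = 4, limma adjusted p 0.163). Array 2 was above 0 and the other 3 below. Its SD was 2.14 on the exposed-aphid arrays alone and 0.66 on the unexposed-aphid arrays, so the pooled SE draws on the latter. The Col-0 response of contig3580 was the lowest of all members, at -7.06, -0.08, -4.17 and -1.59. Its 35S:EBFS response arrays read 0.91, 1.01, 0.75 and 0.94, and its spots were saturated on all 8 arrays of slide 2. Turned, the ratios were -1.07 for contig7717 and 2.47 for contig3580.

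The unexposed-aphid arrays ask how rearing alone changed the level. Their median log2 ratio of 35S:EBFS over Col-0 rearing was -0.29 over the first class and -0.10 over the second, and 99 of 150 members were below 0, beside 3549 of 7223 names. In limma 1 name passed (0.0138% of 7223), and it was no member, while 12 members and 426 names (5.90%) had an unadjusted p under 0.05. The smallest adjusted p among members was that of contig1855. It read -0.45, -0.58, -1.08 and -0.88, all below 0, at -0.75 ± 0.14 (pooled SE, n = 4, limma adjusted p 0.447). On the exposed-aphid arrays contig1855 read 0.36, 0.50, 0.42 and 0.86, all above 0 with the direction of the labels. Its difference of responses on the other arrays was -0.21 ± 0.19 (SE), or -1.28 with the exposed-aphid arrays turned, both opposite in sign to the 1.71 on the choosing arrays. Among higher ratios contig4261 had the smallest p, with 1.2, 1.83, 1.93 and 0.56, at 1.38 ± 0.43 (pooled SE, n = 4, limma adjusted p 0.767). Its 35S:EBFS response arrays, -0.72, 2.52, -1.07 and 1.36, lay on both sides of 0.

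How many members stayed when 1 choosing array was left out differed by array. Without a Col-0 response array 147, 142, 148 and 110 members still met the criterion, in the order of arrays 1 to 4. Without a 35S:EBFS response array 147, 113, 142 and 140 did. Array 4 of the Col-0 response and array 2 of the 35S:EBFS response thus carried the most members, mainly those of groups 1 and 2. In all, 58 members met the criterion whichever single array was left out, 30 of the first class and 28 of the second. By group these were 10 of 52, 20 of 46, 20 of 34 and 8 of 18. Without array 4 of both responses 100 members met it.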

How the data were processed

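The members and the comparisons were chosen with earlier results of these data known. Scanner files hold fluorescence intensity per spot, deposited on a linear scale; the file headers name Agilent Feature Extraction, version 10.5.1.1. The processed signal of each channel is background-subtracted and dye-normalized by that software, and the headers list linear and lowess dye factors. The authors' deposited table gives log2 ratios per probe and array group, and the submitters' processing notes mention limma. The deposited log2 values served only to check directions and as an alternative.

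Of 15744 spots per array, 1116 control spots were left out. Probes well above background in both channels of the 8 choosing arrays were kept (by the software's flag; 10576 probes, 7223 names). The log2 ratio of the first over the second condition was centred on each array's median and averaged over arrays and then over probes of a name. On the 8 other arrays, outlier spots (53) were left out and saturated spots kept. limma 3.58.1 in R 4.3.3 fitted both ratios with 1 dye effect per name, with Benjamini-Hochberg adjustment over all 7223 names at 0.05. Each SE from this fit pools the spread of the exposed- and unexposed-aphid arrays. The fit was run on simulated data with independent errors per array, as a check of the mean estimate only. Deviations shared by arrays and saturation were not simulated. Gene lists could not be matched to any name and were not used. Named members are the 2 with the largest smaller size in each class and, for each test, the 1 with the smallest p per direction.

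Pairing was checked by correlating deviations of same-numbered arrays. Between the exposed- and unexposed-aphid groups 1 of 4 correlations exceeded 0.1, so numbers were not taken to pair them. Python 3.11.15 was used for the rest.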

Additional observations from a re-analysis of the deposited data

Results flagged for a closer look

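Of 56 sets of 4 arrays checked (the 10 named members and the 4 profile groups in each array group), 1 had a single array far from the others, where chance gives about 1 in 20. For contig3580 on the unexposed-aphid arrays, array 2 read 0.85 and the other 3 lay between -0.57 and -0.42. The gap was 0.846 of the range, above Dixon's 95% limit for 4 values, and all 4 spots were saturated.

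For 5 named members every Col-0 response array lay on one side of 0 and every 35S:EBFS response array on the other. The same was seen for 24 of all 150 members and 5.62% of all names. The difference of responses was -3.41 for contig3082, -3.36 for contig2337, -1.13 for contig9841, -4.13 for contig3580 and 1.71 for contig1855. On these arrays the difference was not tested, because they chose the members. On the other arrays it was -1.64, -1.71, -0.96, -2.61 and -0.21 in the same order, with limma adjusted p of 0.349, 0.374, 0.188, 0.321 and 0.785. The first 4 kept the sign and contig1855 did not, if the exposed-aphid arrays run as labelled. With the exposed-aphid arrays turned the values were 1.26, 1.07, 0.06, 2.33 and -1.28, and the sign was kept by none of the 5.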

How the results depend on the processing

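For the difference of responses, leaving out 1 array gave 0 to 1 names, and other settings gave 0, the replicate block included (842 names at an unadjusted p under 0.05). For the exposed-aphid ratio, leaving out 1 array gave 0 to 58 names, and the replicate block gave 0. For the unexposed-aphid ratio the count of 1 became 2 with normexp and loess, 3 with probes well above background on all arrays, 2 without saturated spots, 0 without a dye effect, 0 with a dye effect per slide, 13 with array weights, 0 with the replicate block, 3 with each probe on its own, 0 without both arrays numbered 4 (chosen after seeing the data) and 0 without any 1 array. Members past the threshold numbered 0 in every setting run, except 1 for the exposed-aphid ratio without its array 1.

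The count of members with the sign of the choosing arrays (97) ranged from 85 to 110 without 1 array. These were 56.7% to 73.3% of members, beside 51.0% to 67.9% of all names. The count was 53 of 92 without saturated spots and 28 with the exposed-aphid arrays turned (chosen after seeing the data). It was 122 (81.3%, beside 61.3% of all names) with the unexposed-aphid arrays turned, a direction that neither the labels nor the deposited table gives. The class medians reversed to -0.0822 without saturated spots and -0.908 with the exposed-aphid arrays turned for the first class, and to 0.0384 with the unexposed-aphid arrays turned for the second. Without 1 array they ranged from 0.126 to 0.942 and from -0.618 to -0.188. With the exposed-aphid arrays turned the difference was -1.65 for contig1393, -1.94 for contig4636, 1.26 for contig3082, 1.07 for contig2337, -1.41 for contig2063 and 0.0626 for contig9841, and the exposed-aphid ratio -1.07 for contig7717 and 2.47 for contig3580. With the unexposed-aphid arrays turned that ratio was -1.38 for contig4261 and 0.747 for contig1855. Without 1 array the difference ran from -0.125 to 2.45 for contig1393 and from -0.0395 to 3.10 for contig4636, lowest without array 3 of the unexposed-aphid group. In the other settings run, the value each member was named for did not change direction. All 150 members met the criterion with normexp and loess, with the deposited log2 values and without outlier spots. Without 1 array 110 to 148 did. The causes were not tested. Saturation on slide 2 limits 69 members, and the dim members of groups 2 and 4 lie closer to background.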
